A study of Bos taurus with 6 samples.

Results

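The integrated and unfolded protein stress genes described here are 43 listed genes. They cover endoplasmic reticulum stress sensors and other kinases of the integrated stress response, with transcription factors and targets of these pathways. Chaperones and degradation factors of the endoplasmic reticulum are also included. Members were chosen by gene symbol with earlier results of these data known. Their counts beside all genes therefore describe the set and are no independent test of it. A member was tested if it averaged 10 or more across the 6 libraries. Of the 43, 42 had a row in the deposited table and 40 reached that average, out of 12101 named genes that did so. CEBPG had no row that was analysed here, and EIF2AK2 and SLC7A11 were below it. Each library was polyadenylated RNA from a pool of 15 bovine late morulae, collected on day 6 after in vitro fertilization. The groups, with 2 libraries each, were a NOTCH1 knockdown, an RBPJ knockdown and a control, made by injecting embryos with small interfering RNA against NOTCH1, against RBPJ or of nonspecific sequence. NOTCH1 is a receptor of the NOTCH pathway, and RBPJ is the DNA-binding protein through which cut NOTCH receptors act on transcription. All embryos had thus received a small interfering RNA, and a knockdown leaves part of the targeted transcript in place. Whether the pools of a group came from separate oocyte collections is not in the labels, and p-values therefore reflect only the spread between these pools, which may be technical.

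Secreted and membrane proteins fold in the endoplasmic reticulum with the help of chaperones, disulfide isomerases and sugar-binding lectins, and proteins that fail to fold are passed to the cytosol for degradation. Membrane sensors of several kinds watch this process in mammals: IRE1 (gene ERN1), which splices the messenger RNA of XBP1, ATF6, which is cut to release a transcription factor, and PERK (gene EIF2AK3), which phosphorylates the translation initiation factor eIF2. PERK shares that substrate with kinases that sense haem shortage, double-stranded RNA and uncharged transfer RNA, and phosphorylated eIF2 lowers protein synthesis while raising translation of ATF4, the shared output called the integrated stress response. In embryos cultured in vitro, drugs that cause such stress are known to impair blastocyst formation. Messenger RNA abundance, measured here, does not show splicing of XBP1, cutting of ATF6 or phosphorylation of eIF2.

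The deposited values were taken to be read counts scaled by the authors, here called normalized counts, with totals of 10365695 to 10815554 per library. RBPJ had 121 and 94.5 in the RBPJ knockdown, against 447 and 391 in the control (log2 fold change -1.96, limma adjusted p = 0.00149). NOTCH1 had 48.03 and 49.5 in the NOTCH1 knockdown, against 69.6 and 140 in the control, which did not pass (log2 fold change -1.003, limma adjusted p = 0.637). The RBPJ knockdown libraries had 50.02 and 125 of NOTCH1, so that replicate 1 stood close to the NOTCH1 knockdown. Markers of the late morula were present, with POU5F1 between 10911 and 12942 in every library. CDX2 had 976 and 832 in the NOTCH1 knockdown and 682 and 624 in the RBPJ knockdown, against 654 and 744 in the control. Over the 11 of 12 such markers with a row, the sum was 74536 and 66539.5 in the NOTCH1 knockdown and 68750.2 and 56568 in the RBPJ knockdown, against 58324.5 and 59560.1 in the control. This sum was higher than the control in both NOTCH1 knockdown libraries, and its part in the differences below was not tested. KRT8, among its largest members, had 15897 and 12502.5 in the NOTCH1 knockdown and 16107 and 7578 in the RBPJ knockdown, against 11997 and 10630 in the control. Cumulus, granulosa and fibroblast markers, 16 of 18 with a row, summed to 1708 and 1788 in the NOTCH1 knockdown and 1936 and 1843 in the RBPJ knockdown, against 1758 and 1931 in the control. The largest in this sum were PDGFRA, between 830 and 995, and COL1A1, between 286 and 346. CYP19A1 was between 114 and 172, and FOXL2 was at most 16.2. Blood and immune cell markers, 13 of 14 with a row, summed to 2110 and 2575 in the NOTCH1 knockdown and 2503 and 3055 in the RBPJ knockdown, against 2404 and 3411 in the control. Most of this sum came from CSF1R, between 843 and 1829, and the haemoglobin gene HBA, between 976 and 1380 over the 6 libraries, whereas the leukocyte marker PTPRC was at most 11.3. No marker of these lists was at 0 in every library, and their part in the differences below was not tested.

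The stress genes stood slightly lower in both knockdowns, and none of the 40 tested passed in any comparison. HSPA5, an abundant chaperone of the endoplasmic reticulum, stood at 0.788 of the control in the NOTCH1 knockdown and 0.814 in the RBPJ knockdown, and HERPUD1, a scaffold of its degradation machinery, at 0.739 and 0.7498. XBP1, ATF4, DDIT3, ATF3, NFE2L2, MANF and CALR were also below both control libraries in all knockdown libraries. The haem-sensing kinase EIF2AK1 was the one member above both control libraries in all of them. Since whole embryo pools were sequenced, fewer cells of a type and less RNA per cell cannot be told apart.

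In the NOTCH1 knockdown, 31 of the 40 tested members had a negative log2 fold change, against 48.9% of all genes tested. Their median log2 fold change was -0.12, beside 0.01 over all genes tested. Both knockdown libraries lay below both control libraries for 14 members, where 17.2% of all genes did so, and above both for 2, where 18.6% did. limma called 0 members and 0.0% of all genes at an adjusted p below 0.05, with a smallest adjusted p of 0.469 among members. At an unadjusted p below 0.05, 2 members were lower and 0 were higher, against 2.72% and 4.56% of all genes.

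In the RBPJ knockdown, 28 of the 40 were lower by sign, against 50.3% of all genes tested, with a median log2 fold change of -0.09 beside -0.00 over all genes. Both RBPJ knockdown libraries lay below both control libraries for 15 members, against 16.7% of all genes, and above both for 4, against 15.3%. limma called 0 members, while 0.00826% of all genes passed, which was RBPJ itself. At an unadjusted p below 0.05 the counts were again 2 lower and 0 higher members, against 1.52% and 2.81% of all genes. The comparisons share their control libraries. With both knockdown groups set against the control in the same fit, 9 members had all 4 knockdown libraries below both controls, against 7.92% of all genes, and 1 member had them above, against 7.96%. By sign 31 of the 40 were lower there, against 50.1% of all genes. limma called 0 members and 0.0% of all genes there, and 2 members were lower and 0 higher at an unadjusted p below 0.05, against 2.31% and 4.21% of all genes.

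Differences of this size were close to those between replicates. The median size of a member's log2 fold change was 0.15 in the NOTCH1 knockdown and 0.14 in the RBPJ knockdown. Replicates of a group differed by a median of 0.15, 0.14 and 0.17 in the NOTCH1 knockdown, the RBPJ knockdown and the control. Over all genes tested, in the same order, the sizes were 0.15 and 0.13. The replicate differences there were 0.18, 0.18 and 0.22. Fold changes compare means of 2 libraries, whereas replicate differences compare single libraries. When every gene was centred on its own average, the members' median was -0.05 and -0.05 in the NOTCH1 knockdown libraries and -0.05 and 0.01 in the RBPJ knockdown libraries, against 0.07 and 0.05 in the control libraries. Both control libraries thus stood above all 4 knockdown libraries, and replicate 2 of the RBPJ knockdown was nearest to them.

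**Figure D1:**
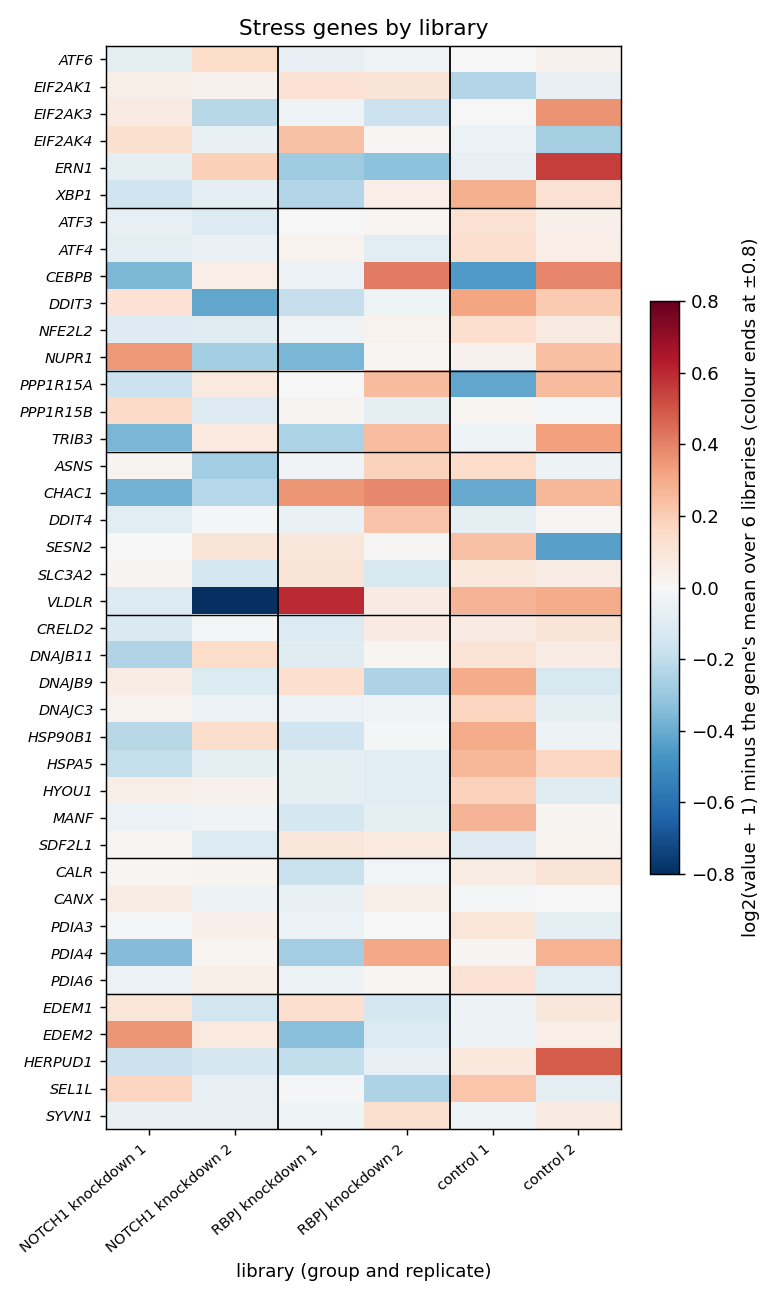
Colour shows log2(normalized count + 1) minus the gene's mean over the 6 libraries for the 40 tested stress genes (down, by role) in each library (across). HSPA5, XBP1 and DDIT3 are warm in both control columns, EIF2AK1 is cool in both, and CEBPB, PPP1R15A and TRIB3 are lower in replicate 1 than in replicate 2 of every group.

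Among the sensors, the transcript that IRE1 splices was lower and kinases of the integrated stress response went both ways. XBP1 had 260.3 and 276 normalized counts in the NOTCH1 knockdown and 247 and 301 in the RBPJ knockdown, against 353 and 316 in the control. All knockdown libraries were below both controls, with log2 fold changes of -0.32 (95% interval -0.68 to 0.04) in the NOTCH1 knockdown and -0.29 (-0.65 to 0.07) in the RBPJ knockdown. ERN1, the IRE1 sensor and a low transcript, had 35.8 and 43.1 in the NOTCH1 knockdown and 30.7 and 29.8 in the RBPJ knockdown, against 35.9 and 55.7 in the control. The RBPJ knockdown libraries were below both controls, and those of the NOTCH1 knockdown overlapped them in range. The control libraries differed from each other in ERN1 by more than either knockdown's mean differed from theirs. ATF6 had 236 and 276 in the NOTCH1 knockdown and 238 and 244 in the RBPJ knockdown, against 248 and 255 in the control.

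The kinases that phosphorylate eIF2 differed in direction. EIF2AK3, the PERK sensor, had 139 and 113 in the NOTCH1 knockdown and 129 and 117 in the RBPJ knockdown, against 132 and 170.0 in the control. EIF2AK1, which responds to lack of haem and to mitochondrial stress, had 788 and 781 in the NOTCH1 knockdown and 827 and 819.9 in the RBPJ knockdown, against 648 and 734 in the control. EIF2AK4, also named GCN2, which binds uncharged transfer RNA, had 1078 and 947 in the NOTCH1 knockdown and 1161 and 996 in the RBPJ knockdown, against 956 and 822 in the control. EIF2AK1 was thus higher in all knockdown libraries, with log2 fold changes of 0.18 (95% interval -0.08 to 0.45) in the NOTCH1 knockdown and 0.25 (-0.01 to 0.52) in the RBPJ knockdown. EIF2AK4 was above both controls in the RBPJ knockdown, at 0.28 (-0.01 to 0.57), and overlapped them in the NOTCH1 knockdown. EIF2AK2, also named PKR, which binds double-stranded RNA such as that of some viruses, had 0 and 5.38 in the NOTCH1 knockdown and 0 and 2.05 in the RBPJ knockdown, against 3.17 and 0 in the control. At these levels no group difference in EIF2AK2 was detectable.

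The transcription factors of the pathway were lower by small amounts, except for CEBPB in the RBPJ knockdown. ATF4, whose translation rises when eIF2 is phosphorylated, had 3062 and 3099 in the NOTCH1 knockdown and 3272 and 3022 in the RBPJ knockdown, against 3519 and 3329 in the control. DDIT3, also named CHOP, a factor induced downstream of ATF4 that can promote cell death, had 161 and 111 in the NOTCH1 knockdown and 130.3 and 144 in the RBPJ knockdown, against 185 and 171 in the control. ATF3, a stress-induced factor of the same bZIP family, had 1231 and 1192 in the NOTCH1 knockdown and 1291 and 1299.7 in the RBPJ knockdown, against 1399.8 and 1324 in the control. For these genes no knockdown library reached the lower control. In the NOTCH1 knockdown the log2 fold changes were -0.15 for ATF4, -0.41 for DDIT3 and -0.17 for ATF3, and in the RBPJ knockdown -0.12, -0.37 and -0.07.

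NFE2L2, or NRF2, the main regulator of antioxidant genes, also lay below both controls in all knockdown libraries. It had 781 and 784 in the NOTCH1 knockdown and 823 and 855 in the RBPJ knockdown, against 919 and 880.4 in the control. NUPR1, a small stress-induced chromatin protein, had 191 and 124 in the NOTCH1 knockdown and 116 and 151 in the RBPJ knockdown, against 154 and 177 in the control. Its replicates were far apart in the NOTCH1 knockdown, on both sides of the control. CEBPB, a bZIP factor that can pair with ATF4 and CHOP, had 337 and 449 in the NOTCH1 knockdown and 418 and 577 in the RBPJ knockdown, against 315 and 566 in the control. Replicate 2 exceeded replicate 1 in every group by more than the group means differed.

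Feedback and effector genes downstream of ATF4 mostly overlapped the control. PPP1R15A, also named GADD34, which directs a phosphatase to eIF2 and so ends the response, had 503 and 599.8 in the NOTCH1 knockdown and 566 and 677 in the RBPJ knockdown, against 426 and 676 in the control. PPP1R15B, its constitutive counterpart, had 764 and 642 in the NOTCH1 knockdown and 698 and 654 in the RBPJ knockdown, against 697 and 681 in the control. TRIB3, a pseudokinase that dampens ATF4 and CHOP activity, had 97 and 132 in the NOTCH1 knockdown and 105 and 149 in the RBPJ knockdown, against 123 and 158 in the control. Each of these genes overlapped the control in both knockdowns. ASNS, or asparagine synthetase, had 970.4 and 788 in the NOTCH1 knockdown and 940.2 and 1086 in the RBPJ knockdown, against 1058 and 929 in the control. SESN2 and DDIT4 encode inhibitors of the growth kinase mTORC1. SESN2 had 833 and 896 in the NOTCH1 knockdown and 887 and 837 in the RBPJ knockdown, against 979.8 and 616 in the control. DDIT4 had 1293 and 1356 in the NOTCH1 knockdown and 1321 and 1605 in the RBPJ knockdown, against 1302 and 1380.3 in the control. In SESN2 the knockdown libraries all lay between the controls.

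The cystine exchanger of stressed cells consists of a light chain, SLC7A11, and the heavy chain SLC3A2, which also serves other amino acid exchangers. SLC7A11 was close to undetected, at 0 and 1.08 in the NOTCH1 knockdown and 0.769 and 3.08 in the RBPJ knockdown, against 1.06 and 4.35 in the control. SLC3A2 had 1450.4 and 1298 in the NOTCH1 knockdown and 1532 and 1307 in the RBPJ knockdown, against 1517 and 1491 in the control. Only the NOTCH1 knockdown libraries were below both controls in SLC3A2. CHAC1, which degrades glutathione, and the lipoprotein receptor VLDLR, both known as ATF4 targets in other mammalian cells, differed between the knockdowns and are described with that comparison.

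Of the 9 chaperones and folding cofactors, HSPA5 had the smallest p in all comparisons against the control. HSPA5, also named BiP, which restrains the sensors while it is not occupied by unfolded proteins, had 2159 and 2342 in the NOTCH1 knockdown and 2329 and 2317 in the RBPJ knockdown, against 2955 and 2759 in the control. Its mean was 2250.5 ± 129 in the NOTCH1 knockdown and 2323 ± 8.18 in the RBPJ knockdown, against 2857 ± 139 in the control (SD, n = 2 each). This gave a log2 fold change of -0.34 ± 0.10 (SE) in the NOTCH1 knockdown (limma, adjusted p = 0.469). In the RBPJ knockdown it was -0.30 ± 0.10 (SE; limma, adjusted p = 0.983). No knockdown library came within the range of the control libraries, and HSPA5 did not pass in either comparison.

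HSP90B1, or GRP94, the HSP90 chaperone of the same compartment, had 2997 and 3848 in the NOTCH1 knockdown and 3132 and 3466 in the RBPJ knockdown, against 4303 and 3403 in the control. Its libraries overlapped in both comparisons. MANF, a secreted cofactor of HSPA5, had 918 and 932 in the NOTCH1 knockdown and 862 and 899 in the RBPJ knockdown, against 1147 and 962 in the control, so that all knockdown libraries were lower. CRELD2, another secreted stress-induced protein, had 286 and 308 in the NOTCH1 knockdown and 287 and 324 in the RBPJ knockdown, against 323 and 332 in the control. HYOU1, the nucleotide exchange factor of HSPA5, had 2066 and 2049 in the NOTCH1 knockdown and 1907 and 1878 in the RBPJ knockdown, against 2282 and 1871 in the control. Here the lowest library was a control.

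The J-domain partners of HSPA5 overlapped the control except for DNAJB11 in the RBPJ knockdown. DNAJB11 had 695 and 911 in the NOTCH1 knockdown and 769 and 829.8 in the RBPJ knockdown, against 887 and 855 in the control. DNAJB9, which restrains IRE1, had 334 and 297 in the NOTCH1 knockdown and 353 and 270.0 in the RBPJ knockdown, against 394 and 294 in the control. DNAJC3, also known as an inhibitor of the eIF2 kinases, had 615 and 583 in the NOTCH1 knockdown and 584 and 590.1 in the RBPJ knockdown, against 679 and 570.3 in the control. SDF2L1, which works with such J-domain proteins, was the one chaperone with a positive log2 fold change in the RBPJ knockdown. It had 307 and 283 in the NOTCH1 knockdown and 325 and 322 in the RBPJ knockdown, against 284 and 310.1 in the control.

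The disulfide isomerases PDIA3 and PDIA6 and the lectin calnexin were nearly level between groups. CANX, the membrane lectin calnexin, had 8509 and 7923 in the NOTCH1 knockdown and 7838 and 8421 in the RBPJ knockdown, against 8102 and 8129 in the control. Its log2 fold changes were 0.02 (95% interval -0.19 to 0.22) and 0.00 (-0.21 to 0.21) in the NOTCH1 and RBPJ knockdowns. PDIA3, the isomerase that works with calnexin, had 4062 and 4208 in the NOTCH1 knockdown and 3952 and 4078 in the RBPJ knockdown, against 4373 and 3892 in the control. PDIA6 had 3791 and 4047 in the NOTCH1 knockdown and 3801 and 3928 in the RBPJ knockdown, against 4245 and 3680.1 in the control. In both isomerases all knockdown libraries lay between the controls. PDIA4, a further isomerase, had 769 and 988 in the NOTCH1 knockdown and 804 and 1208 in the RBPJ knockdown, against 992 and 1182 in the control, with replicate 2 above replicate 1 in every group. CALR, the soluble lectin calreticulin, had 4928 and 4961 in the NOTCH1 knockdown and 4329.6 and 4818 in the RBPJ knockdown, against 5088 and 5261 in the control. All CALR knockdown libraries were below both controls, by a log2 fold change of -0.07 in the NOTCH1 knockdown and -0.18 in the RBPJ knockdown.

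In the machinery that returns misfolded proteins to the cytosol, HERPUD1 was the second member with an unadjusted p below 0.05 in both knockdowns. It had 208 and 214 in the NOTCH1 knockdown and 204 and 225 in the RBPJ knockdown, against 249 and 329 in the control. Its log2 fold change was -0.44 ± 0.18 (SE) in the NOTCH1 knockdown (limma, adjusted p = 0.648) and -0.42 ± 0.18 (SE) in the RBPJ knockdown (limma, adjusted p = 0.983). Much of this rested on replicate 2 of the control, without which the values were -0.23 in the NOTCH1 knockdown and -0.21 in the RBPJ knockdown. Without replicate 1 of the control they were -0.64 and -0.62.

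The ubiquitin ligase SYVN1, also named HRD1, to which HERPUD1 binds, had 892 and 888 in the NOTCH1 knockdown and 907 and 1018 in the RBPJ knockdown, against 908 and 977 in the control. SEL1L, the adaptor that stabilises SYVN1, had 660.3 and 559.8 in the NOTCH1 knockdown and 583 and 494 in the RBPJ knockdown, against 684 and 556 in the control. EDEM1, which trims mannose from misfolded glycoproteins, had 478 and 404 in the NOTCH1 knockdown and 492 and 407 in the RBPJ knockdown, against 435 and 478 in the control. SEL1L and EDEM1 overlapped the control in both knockdowns. EDEM2, which starts the mannose trimming, is described with the comparison of the knockdowns.

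**Figure D2:**
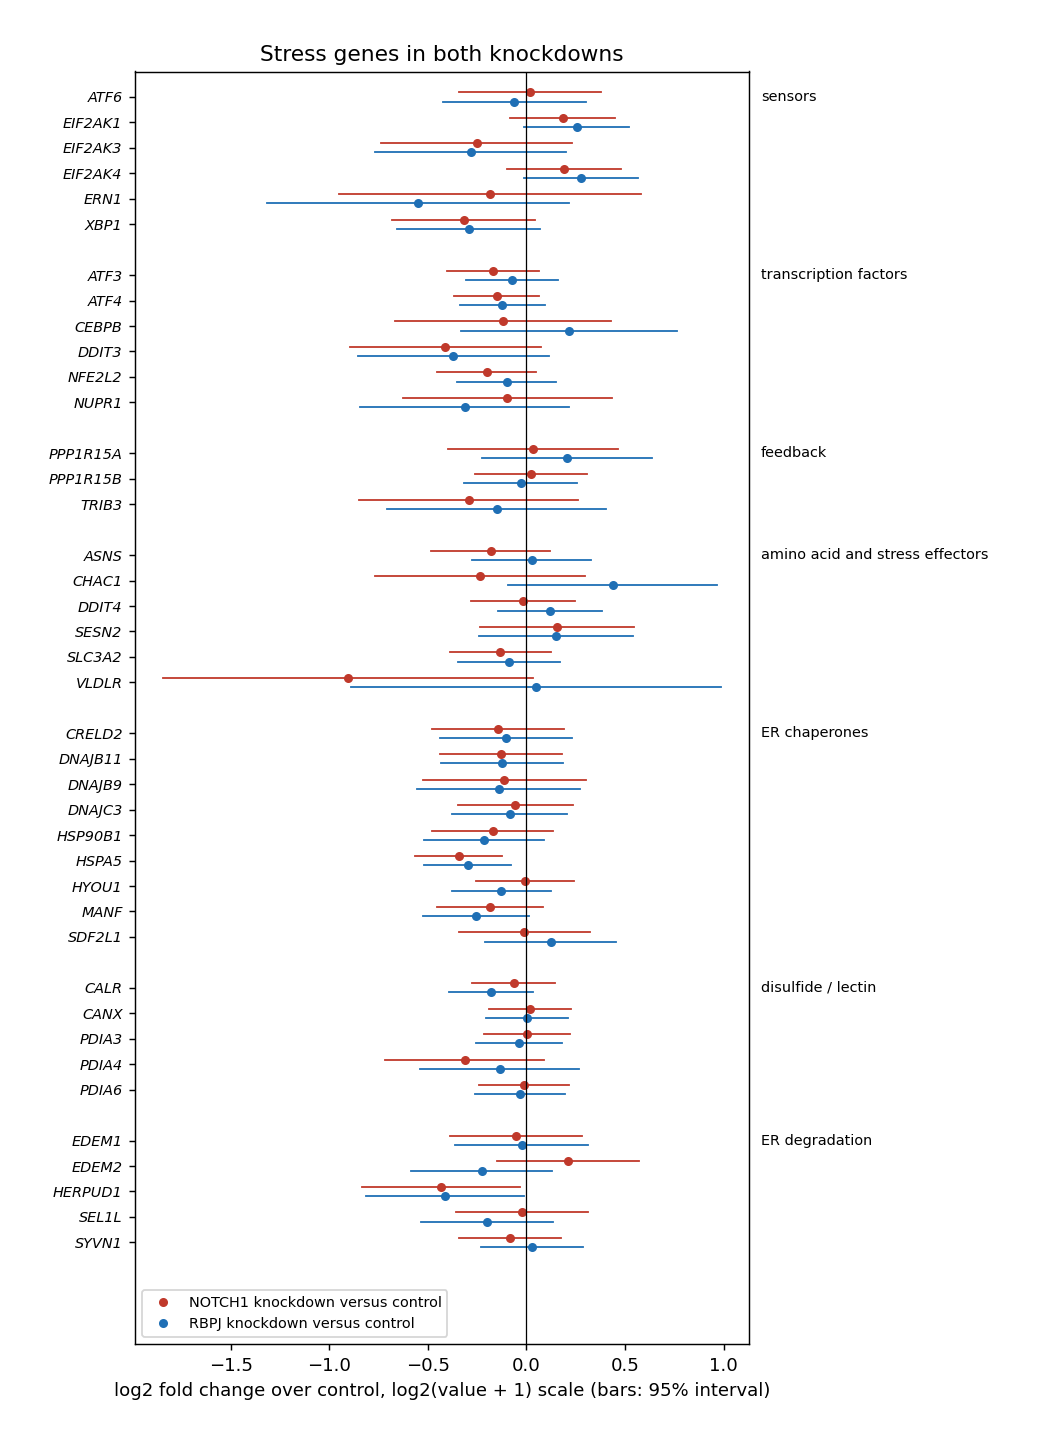
Points are log2 fold changes over the control on the log2(value + 1) scale for the 40 tested stress genes by role, NOTCH1 knockdown above RBPJ knockdown, with 95% intervals from limma. HSPA5 and HERPUD1 are the genes whose intervals lie below 0 in both knockdowns, and no interval lies above 0.

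**Figure D3:**
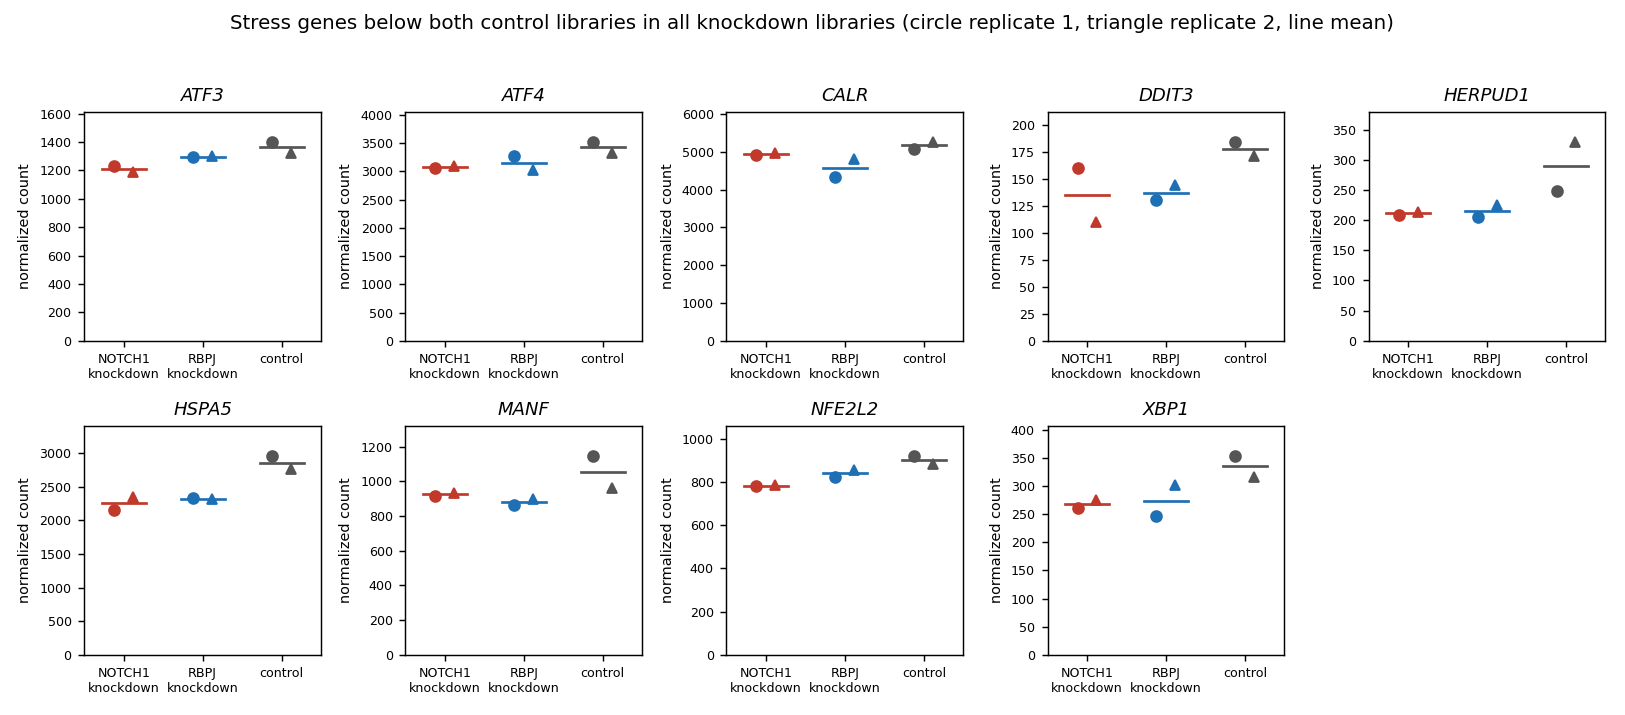
Normalized counts per library (vertical axes from 0) for the 9 stress genes whose 4 knockdown libraries were all below both control libraries, with a line at each group's mean of 2 libraries. HSPA5 has 2159 and 2342 in the NOTCH1 knockdown and 2329 and 2317 in the RBPJ knockdown, against 2955 and 2759 in the control, and for ATF4 and CALR the distance is small beside the level.

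Set directly against the RBPJ knockdown, the NOTCH1 knockdown was lower in CHAC1 and VLDLR and higher in EDEM2, none of which passed. The median log2 fold change of the 40 tested members was -0.03, beside 0.01 over all genes tested, with 23 lower by sign against 47.3% of all genes. The NOTCH1 knockdown libraries lay below both RBPJ knockdown libraries for 7 members, against 15.5% of all genes, and above both for 5, against 17.5%. limma called 0 members and 0.00826% of all genes, again RBPJ itself. At an unadjusted p below 0.05, 2 members were lower and 1 higher, against 1.83% and 1.82% of all genes.

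CHAC1 had 100.1 and 111 in the NOTCH1 knockdown, against 167 and 170.4 in the RBPJ knockdown. The control libraries, at 98.3 and 157, spanned most of that distance. The log2 fold change of the NOTCH1 over the RBPJ knockdown was -0.67 ± 0.24 (SE; limma, adjusted p = 0.999), and the 95% interval ran from -1.20 to -0.14. VLDLR was low, with 26.1 and 12.4 in the NOTCH1 knockdown, against 43.2 and 29.7 in the RBPJ knockdown, and 34.3 and 35 in the control. Its log2 fold change was -0.95 ± 0.43 (SE; limma, adjusted p = 0.999). Without replicate 1 of the NOTCH1 knockdown it was -1.46, and without replicate 2 of that group -0.44, so its size depended on the library at 12.4.

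EDEM2 had 402 and 332 in the NOTCH1 knockdown, against 249 and 290.4 in the RBPJ knockdown, with 305 and 325 in the control between them. This gave a log2 fold change of 0.44 ± 0.17 (SE; limma, adjusted p = 0.999) and a 95% interval of 0.08 to 0.80. It was the one tested member with both NOTCH1 knockdown libraries above and both RBPJ knockdown libraries below the controls. For HSPA5 the knockdowns differed by a log2 fold change of -0.05 (95% interval -0.27 to 0.17), for HERPUD1 by -0.02 (-0.42 to 0.38) and for XBP1 by -0.03 (-0.39 to 0.34).

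**Figure D4:**
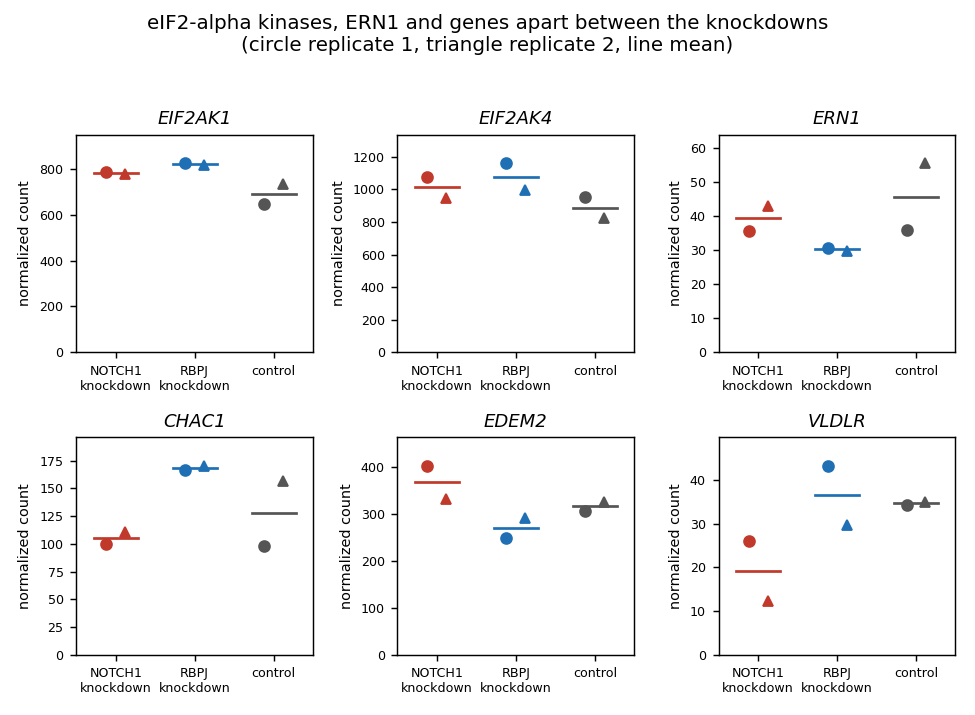
Normalized counts per library (vertical axes from 0) for the kinases EIF2AK1 and EIF2AK4, the sensor ERN1, and CHAC1, EDEM2 and VLDLR, which had an unadjusted p below 0.05 between the knockdowns; lines are means of 2 libraries. EIF2AK1 is higher in all knockdown libraries, EDEM2 lies on either side of the control, and the control libraries of CHAC1, at 98.3 and 157, are far apart.

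Further genes of the same pathways were examined from lists of genes outside the 43, also written with earlier results of these data known. limma called 0 of the 143 tested in each comparison. At an unadjusted p below 0.05, 3 were lower and 4 higher in the NOTCH1 knockdown, where 2.72% of all genes were lower and 4.56% higher. In the RBPJ knockdown 6 were lower and 1 higher, where 1.52% of all genes were lower and 2.81% higher. For the counts by sign that follow, 48.9% of all genes were lower in the NOTCH1 knockdown and 50.3% in the RBPJ knockdown. Of 36 further folding and quality control genes, 13 had a negative log2 fold change in the NOTCH1 knockdown (median log2 fold change 0.03) and 29 in the RBPJ knockdown (median -0.06). UGGT2, a relative of the enzyme that marks unfolded glycoproteins for another round with calnexin, had 16.8 and 6.08 in the NOTCH1 knockdown and 9.16 and 8.36 in the RBPJ knockdown, against 37.8 and 19.7 in the control. FKBP2, a prolyl isomerase of the endoplasmic reticulum, had 572 and 613 in the NOTCH1 knockdown and 527 and 542 in the RBPJ knockdown, against 674 and 704 in the control. Both were thus lower in all knockdown libraries, whereas the list as a whole was not lower in the NOTCH1 knockdown.

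Of 22 further degradation genes, 11 had a negative log2 fold change in the NOTCH1 knockdown (median -0.02) and 15 in the RBPJ knockdown (median -0.08). UBE2G2, a ubiquitin-conjugating enzyme of this pathway, was below both controls in all knockdown libraries. It had 885 and 919 in the NOTCH1 knockdown and 801 and 778 in the RBPJ knockdown, against 991 and 983 in the control. Of 26 further sensor, protease and eIF2 genes, 12 had a negative log2 fold change in the NOTCH1 knockdown (median 0.04) and 17 in the RBPJ knockdown (median -0.08). In the NOTCH1 knockdown 7 of the 26 stood below both controls and 6 above both, where 17.2% of all genes were below and 18.6% above. In the RBPJ knockdown 12 stood below and 3 above, where 16.7% of all genes were below and 15.3% above. TMBIM6, an inhibitor of cell death in the endoplasmic reticulum membrane, was below both controls in all knockdown libraries. It had 4088 and 4322 in the NOTCH1 knockdown and 3992 and 4099.9 in the RBPJ knockdown, against 5132 and 4429 in the control. BFAR, a ubiquitin ligase of the same membrane, was above both controls in all knockdown libraries. It had 417 and 340.2 in the NOTCH1 knockdown and 318 and 303 in the RBPJ knockdown, against 298 and 269.6 in the control.

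The amino acid response genes, which ATF4 induces in other mammalian cells, were divided. Of 29 tested, 16 had a negative log2 fold change in the NOTCH1 knockdown (median -0.03) and 14 in the RBPJ knockdown (median 0.00). All knockdown libraries lay below both controls for 4 of the 29 and above both for 4, against 7.92% and 7.96% of all genes. PHGDH, which commits a glycolytic intermediate to serine synthesis, had 157 and 169 in the NOTCH1 knockdown and 174 and 211 in the RBPJ knockdown, against 275 and 305 in the control. Its log2 fold change was -0.82 in the NOTCH1 knockdown (limma, adjusted p = 0.357) and -0.59 in the RBPJ knockdown (limma, adjusted p = 0.983). GPT2, a mitochondrial alanine aminotransferase, went the other way in both knockdowns. It had 2470.7 and 2325 in the NOTCH1 knockdown and 2077 and 2058 in the RBPJ knockdown, against 1934 and 1762 in the control.

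Of 12 NRF2 and glutathione genes, 8 had a negative log2 fold change in the NOTCH1 knockdown (median -0.05) and 11 in the RBPJ knockdown (median -0.08). NQO1, a quinone reductase and a low transcript, had 10.2 and 9.69 in the NOTCH1 knockdown and 13.8 and 17.5 in the RBPJ knockdown, against 20.1 and 20.7 in the control. Cytosolic and mitochondrial heat shock genes leaned the other way by sign, with 14 of 18 higher in the NOTCH1 knockdown (median 0.11) and 11 in the RBPJ knockdown (median 0.08). In the NOTCH1 knockdown 2 lay below both controls and 7 above both, against 17.2% and 18.6% of all genes. In the RBPJ knockdown 3 lay below and 3 above, against 16.7% and 15.3%, so the lean there was by sign only. HSPB1, the small heat shock protein also named HSP27, had 23551 and 20003 in the NOTCH1 knockdown and 22029 and 18546 in the RBPJ knockdown, against 15128 and 18355 in the control. HSPA1A, the inducible cytosolic HSP70, had 779 and 1170.5 in the NOTCH1 knockdown and 1254 and 2341 in the RBPJ knockdown, against 956 and 2607 in the control. Its replicates differed widely within each group.

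**Figure D5:**
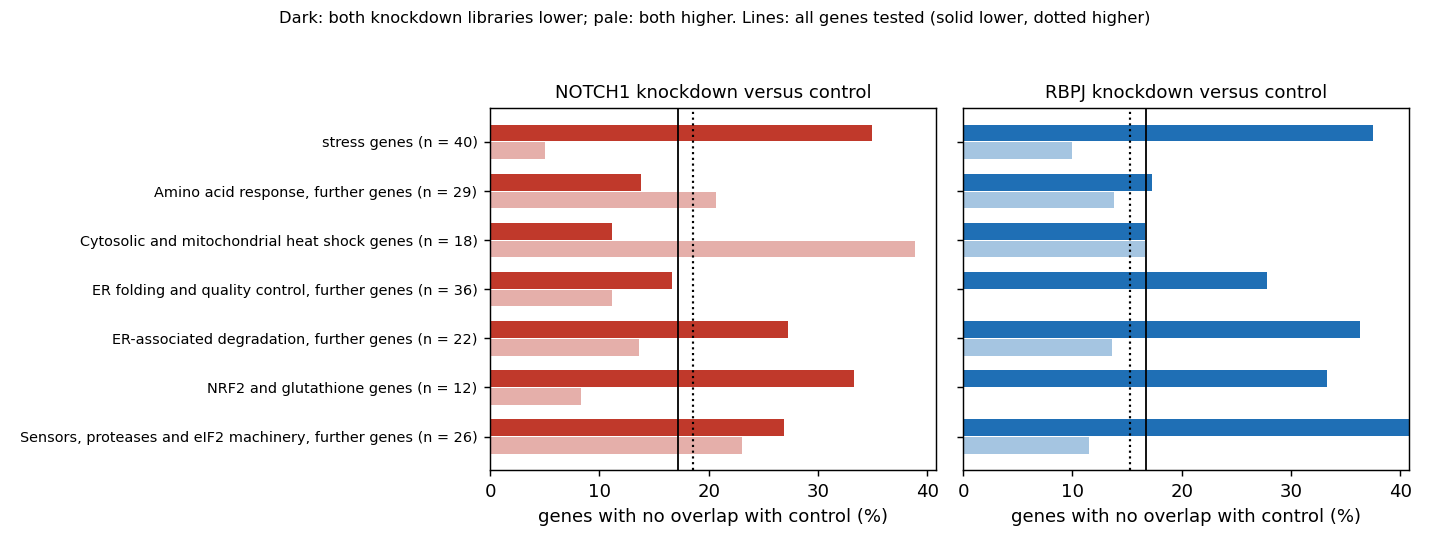
Bars give the percentage of tested genes in each list whose knockdown libraries were both below (dark) or both above (pale) both control libraries, NOTCH1 knockdown on the left and RBPJ knockdown on the right. Lines mark the same percentages over all genes tested, 17.2% lower and 18.6% higher in the NOTCH1 knockdown and 16.7% and 15.3% in the RBPJ knockdown; the bars of the stress genes reach 35% and 37.5% lower.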

How the data were processed

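The submitters' processing notes name Salmon 0.14.1, DESeq2 and the build ARS-UCD1.2 without saying what each was used for, and name no annotation or filter. The deposited signal values were taken, from their form, to be counts divided by the authors' per-library factors. At values below 12, 84.2% to 85.9% lay within 0.1 of a multiple of a per-library step, too few to recover whole reads. The steps put depth near 9670000 to 13600000 reads, deepest in replicate 1 of the RBPJ knockdown. Of 17922 rows, 2551 lacked a gene name and were dropped (6.20% to 7.22% of the total per library), and where a symbol repeated the higher row kept it. Rows of the added GFP and RFP RNA were not used here. No sequences or coordinates are given.

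Analysis was on log2(value + 1), which understates fold changes at low values. A group-means model over all 6 libraries, with a variance trend, was fitted by limma 3.58.1 in R 4.3.3 to 12101 named genes averaging 10 or more. Tests were two-sided, with Benjamini-Hochberg adjustment over all genes and a threshold of 0.05. The fit was checked on simulated counts, with changes larger than those of the stress genes and no effect shared by replicates. That check therefore does not cover differences as small as those described here. All members could be named, with standard errors for those at an unadjusted p below 0.05; from each further list, the 2 genes with the smallest p in a comparison could be. The members and lists were chosen with earlier results of these data known. Genes with near-identical copies, overlapping or antisense partners may share reads. Alternatives were other pseudocounts, filters and scalings, a fit to the compared groups alone, no variance trend, a replicate block, and leaving out single libraries. Figures used matplotlib 3.10.9 in Python 3.11.15.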

Additional observations from a re-analysis of the deposited data

How the results depend on the processing

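No stress gene had an adjusted p below 0.05 under any alternative run. The number lower by sign ran from 26 to 32 in the NOTCH1 knockdown, from 27 to 30 in the RBPJ knockdown and from 27 to 32 with both knockdowns against the control. Between the knockdowns that number ran from 18 to 28, against 23 in the main fit. Over omitted libraries the median log2 fold change of the stress genes ran from -0.120 to -0.0853 in the NOTCH1 knockdown, from -0.117 to -0.0725 in the RBPJ knockdown, from -0.105 to -0.0668 for both against the control, and from -0.0393 to 0.0185 between the knockdowns; omitting replicate 2 of the RBPJ knockdown gave that change of sign. Under the other settings each median moved from its value in the main fit by less than 0.0227. That is the pooled SD between replicates of the libraries' member medians. HSPA5 ranged from -0.41 to -0.29 in the NOTCH1 knockdown and from -0.35 to -0.25 in the RBPJ knockdown over all settings, with adjusted p of 0.0767 to 0.999 and 0.317 to 0.999.

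The count of all genes called changed more. Labels give groups the same replicate numbers, but nothing says that a number marks a shared day or collection. The difference between replicates correlated across genes at 0.149 for the NOTCH1 knockdown and control, 0.2 for the RBPJ knockdown and control, and 0.213 for the knockdowns. With the replicate block limma called 135 genes in the NOTCH1 knockdown, 12 in the RBPJ knockdown, 59 for both against the control and 15 between the knockdowns, with 0 stress genes among them and smallest member adjusted p of 0.0767, 0.317, 0.0807 and 0.354. Replicate 2 was higher in all groups for 10 of 40 stress genes (18.2% of all genes) and replicate 1 for 6 (19.5%). Without the variance trend 0 genes were called in the RBPJ knockdown and 0 between the knockdowns; the cause was not tested. Over omitted libraries the calls ran from 0 to 1 in the NOTCH1 knockdown, 1 to 3 in the RBPJ knockdown, 0 to 3 between the knockdowns and 0 to 3 for both against the control. EIF2AK2 and SLC7A11 were too low for a comparison at this depth.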
